A study of Mus musculus with 18 samples.

Results

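The genes of de novo lipogenesis, the making of fatty acids from carbon that comes mostly from sugar, were followed in liver RNA-sequencing libraries of 18 mice. They were 10 genes given by symbol: the carrier gene Slc25a1, the enzyme genes Acly, Acss2, Me1, Acaca, Acacb and Fasn, the regulators Srebf1 and Thrsp, and the lipid droplet gene Pnpla3. All 10 were found, and 9 of them, all but Pnpla3, were among the 10938 genes tested, which had at least 10 estimated counts in at least 4 libraries. Each of the 9 had at least 55.5 estimated counts in every library, so none was tested only through a group in which it was high. The mice were of the knock-in strain GCKR-P446L-EMI-B6N and carried, in every tissue, 1 of the 2 forms of Gckr, the gene of GKRP, a regulatory protein of the hepatocyte nucleus. Residue 446 of GKRP is a proline in the Gckr-446P (PP) mice, the wild-type form, and a leucine in the Gckr-446L (LL) mice. Per the labels the groups were male PP (MPP, n = 4, age 9 to 14 weeks), male LL (MLL, n = 4, 13 to 14 weeks), female PP (FPP, n = 5, 9 to 14 weeks) and female LL (FLL, n = 5, 11 to 14 weeks), all on standard chow, with 1 library of whole liver per mouse. Numbers after a group name name single mice, and within each group they follow age per the labels. In whole liver, fewer cells of a type and less RNA per cell cannot be told apart.

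In this pathway citrate leaves the mitochondrion through the carrier SLC25A1 and is split by ATP citrate lyase (ACLY) into acetyl-CoA, which acetyl-CoA synthetase (ACSS2) can also make from acetate. Acetyl-CoA carboxylase turns it into malonyl-CoA, and fatty acid synthase (FASN) builds palmitate from that with NADPH, part of which comes from malic enzyme (ME1). In liver the pathway is known to follow insulin through SREBP-1c, a product of Srebf1, and sugar through ChREBP, and it is known for its rise in the fed state.

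The bases upstream of 5 of the genes are shown as examples. Fasn and Acss2 were higher in females of both genotypes, and Me1 was the member that passed the test by LL genotype in males. Srebf1 encodes a regulator, and Slc25a1 overlapped between all groups. Acly, Acaca, Acacb and Thrsp, which also passed in a comparison below, are not shown. Each is 250 bases of GRCm39 that end just before the start of a GENCODE M39 protein-coding transcript, read 5′ to 3′ along the gene. The transcript was the most abundant with a complete coding start, except for Srebf1, where a transcript of 3177 bases with an internal start was chosen. Capitals mark an E-box (CACGTG), a sterol regulatory element (TCACNCCAC) or a CCAAT box (CCAAT), on either strand.
Fasn, chr11:120715403-120715652, minus strand: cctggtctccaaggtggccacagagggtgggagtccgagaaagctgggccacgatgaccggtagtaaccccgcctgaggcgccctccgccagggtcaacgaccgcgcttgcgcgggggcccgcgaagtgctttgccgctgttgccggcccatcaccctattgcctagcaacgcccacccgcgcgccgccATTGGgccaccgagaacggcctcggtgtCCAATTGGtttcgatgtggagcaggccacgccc
Acss2, chr2:155359618-155359867, plus strand: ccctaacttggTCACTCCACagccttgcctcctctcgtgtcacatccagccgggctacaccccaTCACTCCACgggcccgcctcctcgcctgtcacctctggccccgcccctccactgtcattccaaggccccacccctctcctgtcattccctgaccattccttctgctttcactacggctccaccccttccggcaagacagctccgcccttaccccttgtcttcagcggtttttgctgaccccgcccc
Me1, chr9:86578105-86578354, minus strand: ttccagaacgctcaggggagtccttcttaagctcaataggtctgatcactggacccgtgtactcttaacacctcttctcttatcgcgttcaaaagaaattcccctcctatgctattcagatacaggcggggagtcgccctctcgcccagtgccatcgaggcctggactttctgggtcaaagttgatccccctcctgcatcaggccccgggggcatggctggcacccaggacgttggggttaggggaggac
Srebf1, chr11:60101292-60101541, minus strand: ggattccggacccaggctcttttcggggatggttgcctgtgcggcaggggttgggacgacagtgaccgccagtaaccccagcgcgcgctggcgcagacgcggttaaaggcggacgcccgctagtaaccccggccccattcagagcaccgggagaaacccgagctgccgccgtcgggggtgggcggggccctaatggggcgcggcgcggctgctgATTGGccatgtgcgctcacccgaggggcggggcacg
Slc25a1, chr16:17746246-17746495, minus strand: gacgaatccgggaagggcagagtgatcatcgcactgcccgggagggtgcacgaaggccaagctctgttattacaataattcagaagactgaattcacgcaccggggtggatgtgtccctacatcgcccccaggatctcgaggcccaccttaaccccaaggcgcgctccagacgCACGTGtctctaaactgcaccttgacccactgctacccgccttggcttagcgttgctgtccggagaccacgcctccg
Of 10207 promoters of tested genes taken the same way, 7.85% held the E-box letters, 0.941% the sterol regulatory element letters and 36.2% the CCAAT letters. Fasn held 3 CCAAT matches, of which those at -33 to -29 and at -30 to -26 overlap on opposite strands and the other lies at -61 to -57, counted from the start. Acss2 held 2 matches to the sterol regulatory element letters, at -239 to -231 and at -186 to -178. Slc25a1 held 1 E-box at -77 to -72, Srebf1 held 1 CCAAT match at -36 to -32, and Me1 held none of the 3. The Srebf1 match lies at the start chosen as the exception. The Srebf1 start under the rule, of the transcript of 4299 bases, held none of the 3. Of the members not shown, Acly, Acaca, Acacb and Thrsp held none of the 3, and Pnpla3 held 1 CCAAT match. A match of letters is a description and not a binding site.

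Total estimated counts ranged from 3794671 to 6613905 per library. Gckr, the edited gene, was at 518 ± 82.2 normalized counts in MPP and 478 ± 24.6 in MLL mice (SD, n = 4 each), and the change is in its coding sequence, so its level does not check the genotype labels. Albumin and the other 9 hepatocyte markers were measured in every group. Of 9 adipocyte markers, a cell type that also makes fatty acids, Adipoq, Lep and Retn were at 0 in all 18 libraries and Plin1 and Cfd reached at most 1 estimated count. The other 4 were detected in every library, Fabp4 at 8.85 to 27.2, Lipe at 13.1 to 53.9, Cidec at 4.09 to 38.8 and Car3 at 5194 to 15342 estimated counts, and the 9 summed to 578 to 851 TPM in MPP, 441 to 1597 in MLL, 611 to 1123 in FPP and 1046 to 1728 in FLL mice, with 0 of the 4 tested passing in any comparison. Car3 held most of the estimated counts of the 9 markers in every library, so the sums largely follow this 1 gene. The part of fat tissue in the results was not tested. The fragment length of a library, read from the difference between transcript length and effective length, was 448 ± 108 bases in FPP and 292 ± 52.1 bases in FLL mice (n = 5 each, mean ± SD, exact permutation p = 0.0159), and 518 ± 95.7 and 407 ± 156 bases in MPP and MLL mice (n = 4 each, mean ± SD, exact permutation p = 0.286). The mitochondrial share of counts was 10.2% ± 1.11 in FPP and 12.5% ± 1.34 in FLL mice (n = 5 each, mean ± SD, exact permutation p = 0.0317), and 9.497% ± 1.00 in MPP and 12.6% ± 3.73 in MLL mice (n = 4 each, mean ± SD, exact permutation p = 0.171), with MLL 1 the highest at 17.9%.

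In wild-type mice most lipogenic genes were higher in females. Of the 9 members tested, 6 were DEGs (adjusted P below 0.05 and a change of 1.3-fold or more, or to 0.7-fold or less) and all 6 were higher in FPP than in MPP mice, where 3.68% of all genes tested were DEGs in that direction. Fasn, Acacb, Acly, Acaca, Me1 and Acss2 rose by 0.72 to 1.88 on the log2 scale, and Srebf1, Thrsp and Slc25a1 did not pass. The 5 members other than Me1 that passed had no overlap between the 9 mice, against 5.21% of all genes that were higher without overlap. The median log2 fold change was 0.83 over the 9 members and 0.00 over all genes tested. In LL mice 2 of the 9 passed, Fasn and Acss2, both higher in FLL than in MLL mice, with a background of 3.33% of all genes, and the median of the members was 0.40 against 0.01 over all genes.

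By LL genotype Me1 was the member that passed the test, in males. There 8 of the 9 members had a fitted fold change above 1 in MLL against MPP mice, 5 of them at an unadjusted P below 0.05 (Acly, Fasn, Me1, Thrsp and Acss2) where 3.84% of all genes were higher at that P, but after adjustment over the 3301 genes left by DESeq2's independent filtering Me1 alone was a DEG (and with all 10938 genes in the adjustment 0 of 9 were, with Me1 at 0.0943), where 0.210% of all genes were DEGs and higher. The median of the 9 log2 fold changes was 0.48, against 0.00 over all genes. In females 0 of 9 members were DEGs by DESeq2 and 0 by edgeR, where 0.658% of all genes were DEGs by DESeq2. At an unadjusted P below 0.05 Thrsp and Acss2 were higher, where 6.65% of all genes were higher, and Acaca was lower in FLL mice. The median of the members in females was -0.17, against 0.01 over all genes.

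**Figure D1:**
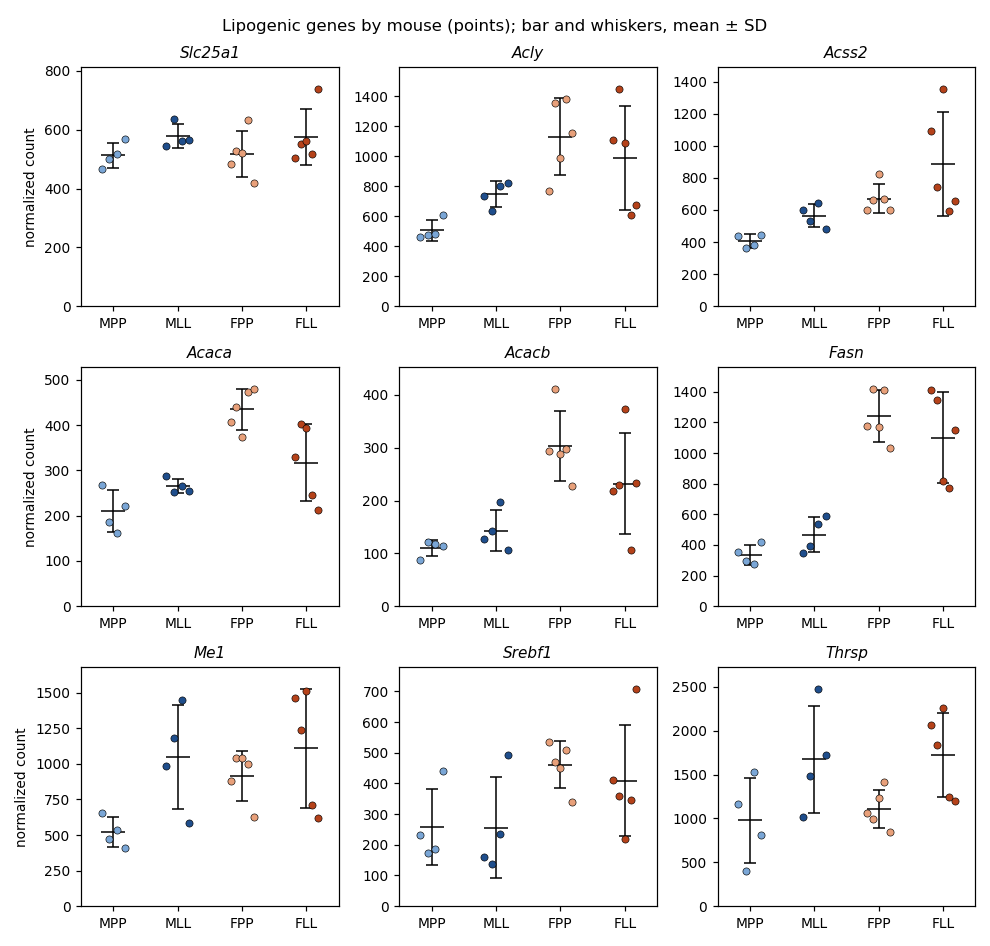
Normalized count (linear axis from 0) of the 9 lipogenic genes tested, with 1 point per mouse and the mean ± SD of each group (MPP and MLL n = 4, FPP and FLL n = 5). Fasn is between 274 and 589 in the 8 males and between 770 and 1417 in the 10 females, while Slc25a1 overlaps in all 4 groups.

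Slc25a1 (chr16:17743075-17746245, minus strand), the mitochondrial citrate carrier, was at 466, 500, 516 and 568 normalized counts in the 4 MPP mice and at 546, 637, 561 and 565 in the 4 MLL mice. In the 5 FPP mice it was at 485, 527, 521, 634 and 419, and in the 5 FLL mice at 503, 550, 563, 516 and 738. All groups overlapped, and the log2 fold change was 0.01 ± 0.13 (SE) between FPP and MPP mice, with a 95% interval from -0.25 to 0.27, and -0.01 ± 0.13 between FLL and MLL mice, from -0.27 to 0.25. By LL genotype it was 0.17 ± 0.14 in males and 0.15 ± 0.12 in females (unadjusted P = 0.230 and 0.224), and the female value turned to -0.54 with the transcript length of each library as an offset and to -0.59 on log2(TPM + 1).

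Acly, which makes cytosolic acetyl-CoA from citrate (chr11:100367165-100440756, minus strand), was at 462, 474, 481 and 611 normalized counts in MPP and at 734, 634, 800 and 822 in MLL mice. The 4 MLL values lay above the 4 MPP values. The log2 fold change in males was 0.56 ± 0.24 with an adjusted P of 0.312, which passed only when the males were fitted alone (adjusted P = 0.0181). In FPP mice Acly was at 767, 1358, 990, 1383 and 1158, above every MPP mouse, with a log2 fold change of 1.16 ± 0.22 (adjusted P = 1.35e-05). In FLL mice it was at 1112, 1447, 1090, 610 and 674, a wider spread that reached below all FPP mice, and the difference from FPP mice was -0.20 ± 0.21 (adjusted P = 0.715). With the average transcript length of each library as an offset the difference between FPP and MPP mice was 0.73 and did not pass (adjusted P = 0.384).

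Acss2, the acetate-using enzyme (chr2:155355679-155428016, plus strand), was at 440, 362, 379 and 445 normalized counts in MPP and at 599, 532, 645 and 482 in MLL mice. Again no MLL mouse was as low as an MPP mouse, and Acly and Acss2 were the 2 members without overlap in this comparison, where 1.80% of all genes were higher without overlap. The log2 fold change of Acss2 in males was 0.48 ± 0.21 (adjusted P = 0.339). In females it was at 601, 664, 825, 668 and 598 in FPP and at 1090, 746, 1352, 595 and 657 in FLL mice, where FLL 1 and FLL 3 were high and the other FLL mice lay within the range of FPP or next to it. The log2 fold change by LL genotype in females was 0.41 ± 0.19 (adjusted P = 0.285). Females exceeded males in both genotypes, by 0.72 ± 0.20 in PP mice (adjusted P = 0.00856) and 0.65 ± 0.20 in LL mice (adjusted P = 0.0234). The PP difference did not pass without MPP 2 (adjusted P = 0.0502). The LL difference did not pass without FLL 1, FLL 3, MLL 2 or MLL 4 (adjusted P of 0.091, 0.0855, 0.0802 and 0.0884), by edgeR (0.068) or with only the LL mice fitted (0.105).

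Me1, the malic enzyme that makes NADPH in the cytosol (chr9:86462646-86578104, minus strand), was at 658, 470, 535 and 412 normalized counts in MPP and at 984, 1182, 1451 and 582 in MLL mice. MLL 1, MLL 2 and MLL 3 lay above all MPP mice, and MLL 4 lay within them. The mean was 519 ± 105 in MPP and 1050 ± 366 in MLL mice (SD, n = 4 each), which was 1.02 ± 0.29 on the log2 scale (adjusted P = 0.0470 by DESeq2). The call was close to the threshold. It was lost on leaving out any of MPP 1 to 4, MLL 1 to 3 or FPP 5, with adjusted P from 0.0637 to 0.342 and log2 fold changes from 0.82 to 1.15, by edgeR (adjusted P = 0.380), and without independent filtering (0.0943). In females Me1 was at 878, 1043, 1043, 997 and 626 in FPP and at 1462, 1237, 1511, 712 and 622 in FLL mice. FLL mice fell on both sides of the FPP range, and the log2 fold change was 0.27 ± 0.26 (adjusted P = 0.659), which turned to -0.068 with the transcript length offset and to -0.19 on log2(TPM + 1). FPP exceeded MPP mice by 0.82 ± 0.27 (adjusted P = 0.0389), a call that was lost without FPP 1, 2, 3 or 4 or MPP 2, 3 or 4 (adjusted P from 0.0626 to 0.142) with age as a term (0.107), by edgeR (0.101), with the fragment length term (0.0724) and with the transcript length offset (0.169). Of the 4134 words of 31 bases read for the main Me1 transcript, 34.2% also occurred in transcripts of other genes in the deposited tables. Its reads could therefore be shared out. The words come from a version longer than the 3288 bases that were quantified, so the share for the quantified transcript is not given. Gm7049, which shares 1098 of the words, was at 0 in every group. Gm48795, which shares 842, averaged at most 3.14 normalized counts in any group. The processed pseudogene Gm7329 (chromosome 1), which shares 156, was at 38.6 ± 21.8 normalized counts in MPP and 110 ± 83.2 in MLL mice (SD, n = 4 each). In females Gm7329 was at 59.8 ± 19.8 in FPP and 103 ± 51.3 in FLL mice (SD, n = 5 each).

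The acetyl-CoA carboxylases, which make malonyl-CoA, had the lowest mean TPM of the 9 members tested, in every group. Acaca, the cytosolic form that feeds fatty acid synthesis (chr11:84020476-84292477, plus strand), was at 269, 187, 163 and 221 normalized counts in MPP, at 288, 253, 265 and 255 in MLL, at 406, 441, 373, 473 and 480 in FPP and at 329, 403, 394, 246 and 213 in FLL mice. FPP mice lay above all males, and FLL 4 and FLL 5 lay below all MLL mice. FPP exceeded MPP mice by 1.06 ± 0.18 on the log2 scale (adjusted P = 5.45e-07), and FLL and MLL mice differed by 0.26 ± 0.18 (adjusted P = 0.441). By LL genotype Acaca was 0.34 ± 0.19 in males (adjusted P = 0.507) and -0.45 ± 0.17 in females (unadjusted P = 0.0073, adjusted P = 0.156), which passed without FLL 3 (adjusted P = 0.0472). The processed pseudogene Gm5182 shares 59.9% of the 9002 words of 31 bases read for the main Acaca transcript. These again come from a version longer than the 9026 bases quantified. The mean of Gm5182 was at most 1.19 normalized counts in any group.

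Acacb, the form at the outer mitochondrial membrane whose malonyl-CoA restrains fatty acid oxidation (chr5:114284307-114388822, plus strand), was at 88.0, 122, 118 and 114 normalized counts in MPP, at 127, 141, 198 and 106 in MLL, at 295, 411, 288, 298 and 228 in FPP and at 218, 229, 374, 107 and 233 in FLL mice. The FPP mice lay above all males, and FLL 4 lay among the males. FPP exceeded MPP mice by 1.45 ± 0.26 (adjusted P = 2.56e-06). The difference between FLL and MLL mice was 0.70 ± 0.26 (adjusted P = 0.0829), which passed without FLL 4 (adjusted P = 0.00471) or MLL 3 (0.0256). By LL genotype it was 0.37 ± 0.28 in males and -0.38 ± 0.24 in females (adjusted P = 0.656 and 0.462). Most counts of Acacb, 78.7% on average, were assigned to a retained-intron transcript of 6680 bases, and 20.2% to a coding transcript of 8788 bases.

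Fasn, fatty acid synthase (chr11:120696672-120715995, minus strand), had the largest fitted difference between sexes among the 9 members in both genotypes. It was at 352, 296, 274 and 422 normalized counts in MPP and at 349, 391, 539 and 589 in MLL mice, with overlap. It was at 1175, 1417, 1171, 1413 and 1031 in FPP and at 1413, 1348, 819, 770 and 1152 in FLL mice, so every female lay above every male. Of the 9 members tested Fasn was the only one for which FLL and MLL mice did not overlap, as did 3.64% of all genes that were higher. The log2 fold change between sexes was 1.88 ± 0.20 in PP mice (adjusted P = 1.38e-17) and 1.24 ± 0.20 in LL mice (adjusted P = 2.01e-07), and both passed in all 28 alternatives run for them. By LL genotype Fasn was 0.48 ± 0.22 in males (adjusted P = 0.353) and -0.17 ± 0.19 in females (adjusted P = 0.722). Coding transcripts of 10050 and 8333 bases held most counts of the gene. The longer held 30.1% ± 2.52 in FPP and 50.1% ± 10.9 in FLL mice, and the shorter held 47.5% ± 6.35 and 24.7% ± 7.67 (SD, n = 5 each). Each difference had an exact permutation p of 0.00794, the smallest that 5 against 5 mice allow, and an adjusted value of 0.222 over the 56 transcript shares compared, of which 5 were under 0.05 unadjusted and 0 after adjustment. In MPP mice the longer held 43.7% ± 7.89 and the shorter 29.0% ± 11.3 (SD, n = 4). Each differed from FPP mice with an exact permutation p of 0.0159, and with the same adjusted value of 0.222. The fragment length of the libraries differed between FPP and FLL mice, and had an exact permutation p of 0.333 between FPP and MPP mice. Its part in the shares was not tested.

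Srebf1, whose product SREBP-1 turns on most of the genes above (chr11:60089913-60113407, minus strand), varied widely between mice of a group. It was at 232, 173, 187 and 441 normalized counts in MPP and at 159, 137, 234 and 494 in MLL mice, where MPP 4 and MLL 4 stood high. It was at 537, 471, 452, 508 and 339 in FPP and at 411, 361, 220, 346 and 708 in FLL mice. By LL genotype the log2 fold change was -0.01 ± 0.37 in males, with a 95% interval from -0.74 to 0.71, and -0.17 ± 0.33 in females, from -0.82 to 0.47. The difference between FPP and MPP mice was 0.83 ± 0.35 (adjusted P = 0.149). It passed in 4 of 28 alternatives, among them without MPP 4 (1.23, adjusted P = 0.0133). The others were only PP mice fitted (adjusted P = 0.0164), the fragment length term (0.0285) and limma on log2(TPM + 1) (0.00863). The difference between FLL and MLL mice was 0.67 ± 0.35 (adjusted P = 0.263). It passed in 2 of 28, without MLL 4 (1.21, adjusted P = 0.00739) and with the fragment length term (0.0419). The counts were spread over transcripts with different starts. The transcript of 4299 bases, from the upstream start, held 33.9% of the counts on average with a range from 0% to 97.7% between mice, that of 3177 bases, from the internal start, held 5.49%, and that of 4063 bases, which begins downstream of both, held 53.1%.

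Thrsp, a small nuclear and cytosolic protein known to rise with thyroid hormone and sugar (chr7:97062139-97066937, minus strand), had a wide spread between mice. It was at 1170, 401, 1533 and 807 normalized counts in MPP and at 1017, 1488, 2474 and 1720 in MLL mice. It was at 1061, 991, 1230, 1413 and 841 in FPP and at 2061, 1832, 2255, 1246 and 1200 in FLL mice. Groups overlapped in both sexes. By LL genotype the log2 fold change was 0.78 ± 0.32 in males (unadjusted P = 0.0152, adjusted P = 0.297) and 0.63 ± 0.29 in females (unadjusted P = 0.0264, adjusted P = 0.264). Between sexes it was 0.18 ± 0.30 in PP mice and 0.04 ± 0.30 in LL mice.

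Pnpla3, a lipase and acyltransferase of lipid droplets that is known to rise with SREBP-1c (chr15:84051943-84073723, plus strand), was at 0 estimated counts in all 8 males. It was at 1 to 5 estimated counts in each of the 10 females, with sums of 17.0 over the 5 FPP and 11.0 over the 5 FLL mice. Females exceeded males in both genotypes with an exact permutation p of 0.0159, the smallest that 5 against 4 mice allow, on the mean normalized count. The single libraries lay close to the level of 3 counts that a count of 0 allows, so no fold change was given. FPP and FLL mice were at 2.89 ± 1.34 and 2.17 ± 1.17 normalized counts (n = 5 each, mean ± SD, exact permutation p = 0.389).

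**Figure D2:**
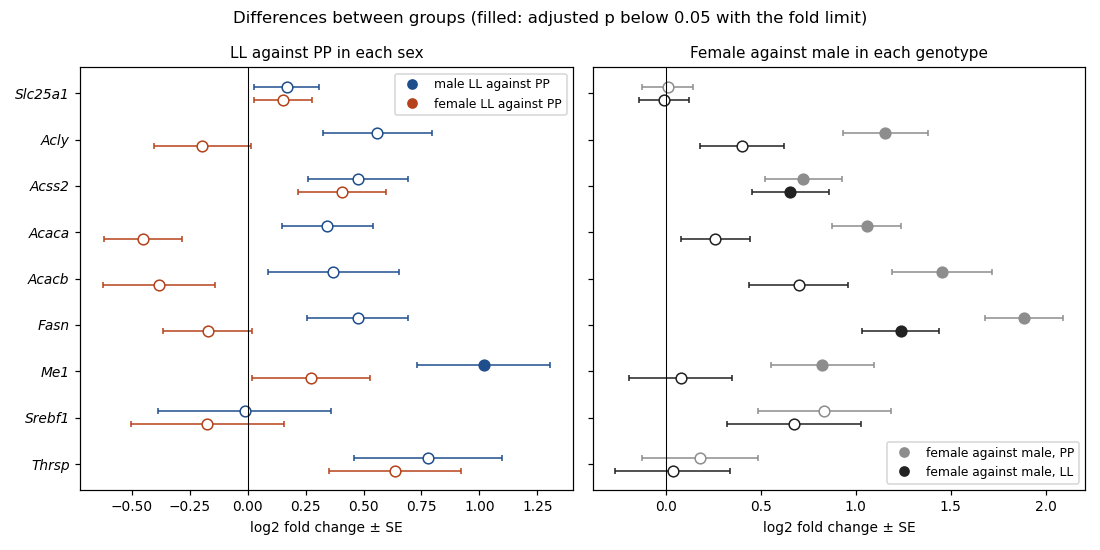
Log2 fold change ± SE (DESeq2) of each member by LL genotype in each sex (left) and by sex in each genotype (right), with filled points for DEGs. By LL genotype Me1 in males is the only filled point, and by sex 6 members are filled in PP mice and Fasn and Acss2 in LL mice.

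Whether the LL genotype acted differently in the sexes was tested as an interaction. All 9 members had a lower log2 fold change by LL genotype in females than in males, with a median difference of -0.65 against 0.01 over all genes, but 0 of 9 passed after adjustment by DESeq2 and 0.119% of all genes did. At an unadjusted P below 0.05 there were 4 members, all lower, where 2.90% of all genes were lower: Acaca at -0.80 ± 0.26, Acly at -0.76 ± 0.32, Acacb at -0.75 ± 0.37 and Fasn at -0.65 ± 0.29. The smallest adjusted P was 0.113, for Acaca, and DESeq2 left that of Acacb empty through its independent filtering. By edgeR 0 of 9 passed as well. These values are the differences of the male and female fold changes given above, from the same mice.

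Averaged over the sexes, Thrsp and Me1 passed by LL genotype, with 0.71 ± 0.21 (adjusted P = 0.0473) and 0.65 ± 0.19 (adjusted P = 0.0435), where 0.594% of all genes were DEGs and higher. Acss2 followed with 0.44 ± 0.14 (adjusted P = 0.0664). These were the 3 members higher at an unadjusted P below 0.05, where 7.21% of all genes were. Neither call stood by edgeR (adjusted P of 0.165 for Thrsp and 0.159 for Me1), and 11 of 27 alternatives kept Me1 and 8 of 27 kept Thrsp. On leaving out 1 library Me1 was lost without FLL 1, 2 or 3, FPP 1, 2, 3 or 5, MLL 2 or 3, or MPP 2 or 4, with adjusted P from 0.0543 to 0.146, and Thrsp was lost without any of these or MLL 4, with adjusted P from 0.0559 to 0.140. The other 6 members lay between -0.09 and 0.18.

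The differences ran with transcript length in females. Across all 10938 genes the log2 fold change between FLL and FPP mice fell with the length of the gene's transcripts (Spearman rho -0.40 across genes, which are not independent replicates), with a median of 0.12 for genes of 1000 to 2000 bases and -0.21 for genes of 8000 bases or more. Among the members Thrsp (1278 bases) and Slc25a1 (1393 bases) are short and were at 0.63 and 0.15, and Fasn (7281 bases), Acacb (7160 bases) and Acaca (9011 bases) are long and were at -0.17, -0.38 and -0.45. Between FPP and MPP mice the relation was weak (rho 0.11), and genes of 4000 to 8000 bases had a median of 0.04 while Fasn, Acacb and Acly stood at 1.88, 1.45 and 1.16. With the fragment length of the library as a term, 6 of 9 members were DEGs between FPP and MPP mice, with Srebf1 (adjusted P = 0.0285) in and Me1 (0.0724) out, and the median of the members between FLL and FPP mice was 0.12. In the interaction the rho across genes was -0.24, and for LL against PP averaged over the sexes, where the short gene Thrsp passed, it was -0.32. The part of fragment length in these differences beyond that term was not tested.

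**Figure D3:**
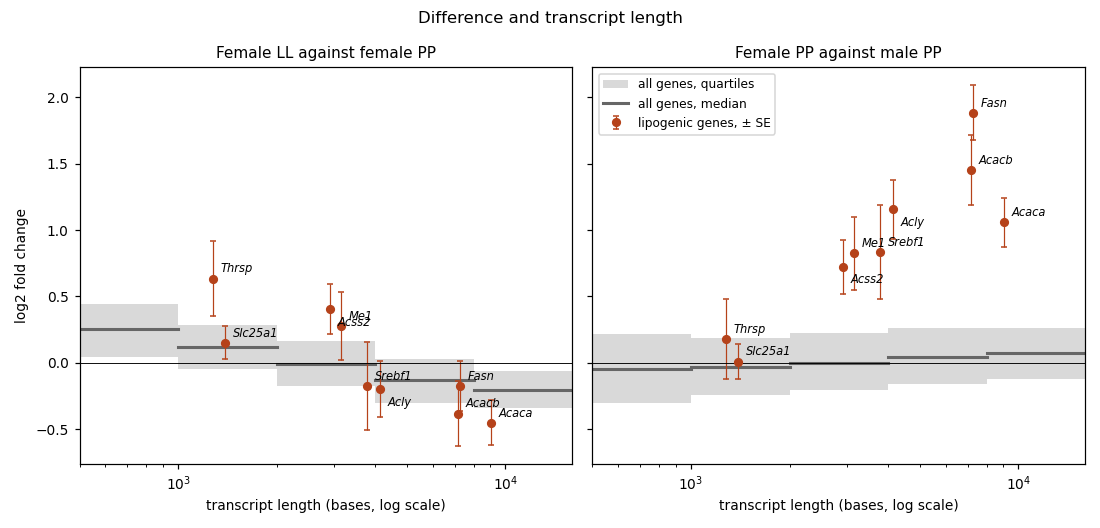
Log2 fold change of the members (points, ± SE) against the length of their transcripts in bases (log axis), for female LL against female PP mice (left) and female PP against male PP mice (right); grey bars give the quartiles and dark lines the median of all genes tested in 5 length classes. On the left the members and all genes both fall with length, and on the right Fasn, Acacb, Acaca and Acly lie far above the quartiles of genes of their length.

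Levels between genes were compared per length, as TPM. In MPP mice the order of the means was Thrsp (96.5), Slc25a1 (76.1), Me1 (23.8), Fasn (21.6), Acly (20.9), Srebf1 (16.3), Acss2 (14.6), Acaca (1.95) and Acacb (1.36 TPM). Neighbours in that order overlapped between mice except for Slc25a1 and Me1 and for Acss2 and Acaca. In FPP mice the order was the same but for Fasn, which at 108 ± 38.9 TPM was ahead of Me1 at 67.0 ± 24.0 (SD, n = 5 each), and these overlapped. The TPM of Fasn is carried by short transcripts: retained-intron forms of 762 and 976 bases held 46.8% and 37.7% of it on average but 11.4% and 12.7% of the counts. All TPM differences between groups contain a shift of the whole scale, since the median gene differed by 0.53 on the log2 scale between FPP and MPP mice when log2(TPM + 1) was compared with limma. The members had a median of 1.49 on that scale.

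Co-variation of the members was read within groups. After the mean of each group was removed, 28 of the 36 pairs of members had a positive Pearson r over the 18 mice, with a median of 0.28. The highest were Me1 with Acss2 (r = 0.73, rho = 0.73, permutation p = 0.00778 and 0.00959) and Srebf1 with Fasn (r = 0.71, rho = 0.76, permutation p = 0.00581 and 0.00344), which were 0.70 and 0.72 without the 2 mice farthest from the median. Neither passed after adjustment over the 36 pairs, where the smallest adjusted values were 0.140 for r and 0.115 for rho, and 6 pairs were under 0.05 unadjusted by each measure. Srebf1 had its lowest r with Me1 (-0.52, permutation p = 0.0778, adjusted value 0.286), which was -0.13 without 2 mice. Mouse FLL 4 was below the mean of its group in all 9 members, and MLL 3, FPP 4 and FLL 1 were above it in 8 of 9. These points share the scaling of each library.

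**Figure D4:**
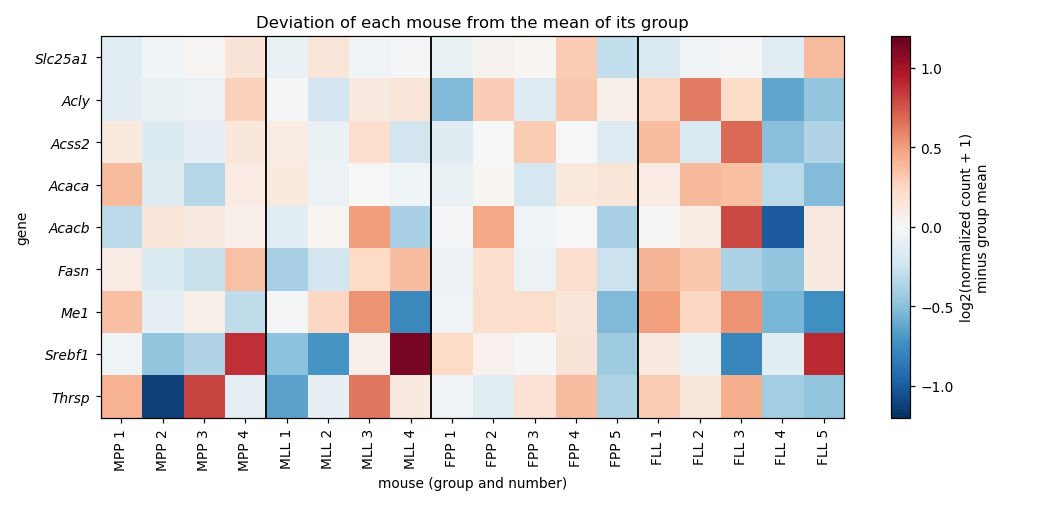
Deviation of each of the 18 mice (columns, by group and number) from the mean of its group for each member (rows), on the scale of log2(normalized count + 1), red above and blue below. The column of FLL 4 is blue throughout, and Srebf1 is dark red in MPP 4, MLL 4 and FLL 5.

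Among 5636 other genes with a mean of at least 50 normalized counts, the 10 whose deviations were most like the mean of the 9 standardised members were Map7 (r = 0.76), Aldh9a1 (0.76), Slc23a1 (0.74), Cs (0.74), Prpf19 (0.74), Trappc12 (0.73), Pgd (0.73), Pdhb (0.73), Aqp8 (0.72) and Cyp3a41a (0.72). Cs (citrate synthase), Pdhb (a subunit of pyruvate dehydrogenase) and Pgd (a pentose phosphate enzyme that makes NADPH) are on the lists of carbon and NADPH supply. Without FLL 4 and FPP 5 the r of Cs, Pdhb and Pgd was 0.47, 0.61 and 0.48, with Cs and Pgd the lowest of the 10. The 5 least alike were Brpf3 (-0.77), Nxf1 (-0.76), Nudt9 (-0.73), Ilkap (-0.72) and Cnn3 (-0.72). These are descriptions over 18 mice of the genes at the ends of a long ranking, and without FLL 4 and FPP 5 they were between 0.47 and 0.74 for the 10 and between -0.43 and -0.74 for the 5.

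Genes that elongate and desaturate fatty acids held 4 DEGs by LL genotype in males. Of 12 genes of fatty acid elongation and desaturation, 4 were DEGs and higher in MLL than in MPP mice, where 0.210% of all genes were. Elovl5, which elongates polyunsaturated fatty acids, rose from 683 ± 160 to 1898 ± 468 normalized counts (log2 fold change 1.47 ± 0.22). Scd1, which makes oleate from stearate, rose from 12786 ± 4229 to 35514 ± 3429 (1.47 ± 0.35), and Fads2 and Fads1, desaturases of polyunsaturated fatty acids, rose by 0.80 ± 0.18 and 0.74 ± 0.17 (SE). Elovl6, the elongase of palmitate, named after its values were seen, did not pass (1.201 ± 0.353, adjusted P = 0.0560). In females 0 of these 12 were DEGs by LL genotype by DESeq2 and 3 were under an unadjusted P of 0.05, as were 1427 of all 10938 genes. For Scd1 the female and male effects differed in the interaction test (-1.66 ± 0.46, adjusted P = 0.0459), a gene chosen here after its values were seen. Between FPP and MPP mice 6 of the 12 were higher and 1 was lower, where 402 of all 10938 genes were higher and 303 lower. The lower 1 was Elovl3, at 8.22 ± 5.83 normalized counts in FPP against 261 ± 61.1 in MPP mice.

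The supply of carbon and NADPH changed in single genes. Of 16 genes of sugar use and pyruvate entry, 1 was a DEG by LL genotype averaged over the sexes, where 0.594% of all genes were DEGs and higher. It was Mpc1, a subunit of the mitochondrial pyruvate carrier (0.41 ± 0.11, adjusted P = 0.0164). Of 9 genes of NADPH supply, Nadk, the NAD kinase, was the only DEG in males, where 0.210% of all genes were DEGs and higher. Nadk was at 549 ± 56.1 normalized counts in MPP and 767 ± 17.9 in MLL mice, and it was also higher in FPP mice (0.78 ± 0.11).

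On a separate list, regulators of lipogenesis did not pass by LL genotype: 0 of 24 tested were DEGs by DESeq2 in males, in females or averaged. At an unadjusted P below 0.05 there were 1, 4 and 4, where 856, 1427 and 1513 of all 10938 genes were. The member Thrsp, named above as a regulator, passed averaged over the sexes. ChREBP (Mlxipl) was at 669 ± 125 normalized counts in MPP and 478 ± 89.2 in MLL mice (SD, n = 4 each), a log2 fold change of -0.48 ± 0.19 (adjusted P = 0.275), and it was chosen after its values were seen. By sex Insig2, which holds SREBP in the endoplasmic reticulum, was higher in FPP than in MPP mice (0.69 ± 0.24), and Lpin1 was lower in FLL than in MLL mice (-1.13 ± 0.29). Of 17 genes of cholesterol synthesis and uptake, the targets of the related factor SREBP-2, 0 were DEGs by LL genotype in either sex and 3 were higher in females of each genotype. Among all genes 3.68% were higher in FPP than in MPP and 3.33% in FLL than in MLL mice. Of 11 genes of glycerolipid assembly, with 10 tested, 0 were DEGs by LL genotype and Plin2 was higher in FPP mice (0.63 ± 0.21). Of 13 clock genes tested 0 were DEGs in any of the 4 comparisons of groups, and of 12 genes of the fasting state Cyp4a14, a fatty acid hydroxylase, was the DEG in males (3.98 ± 0.70).

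Markers of other liver cells moved with the groups. Of 7 endothelial markers 4 were higher in FPP than in MPP mice, as were 4 of the 6 stellate cell markers tested, where 3.68% of all genes were. The endothelial list summed to 10.5 to 27.0 TPM in MPP and 41.7 to 76.0 TPM in FPP mice. The stellate list of 7 summed to 13.4 to 44.9 and 65.4 to 86.5 TPM. Clec4g and Kdr of the endothelial list rose by 1.17 each, and Reln and Col3a1 of the stellate list by 1.24 and 1.05. Hepatocyte markers summed to 27582 to 44705 TPM in MPP and 85015 to 141115 TPM in FPP mice. All these TPM sums contain the shift of the whole scale given above. Of the 10 hepatocyte markers 2 were DEGs between FPP and MPP mice, as were 705 of all 10938 genes in either direction. Alb rose by 0.94 ± 0.10, while Serpina1c was at 53020 ± 5627 normalized counts in MPP and 35202 ± 9587 in FPP mice (SD). Macrophage markers summed to 34.4 to 137 TPM in MPP and 100.3 to 148 TPM in FPP mice, with 0 of 8 passing between them. By LL genotype 2 of 8 macrophage markers were DEGs and lower averaged over the sexes, Csf1r (-0.61 ± 0.16) and Vsig4 (-0.57 ± 0.17), where 42 of all 10938 genes were. Between FLL and FPP mice 6 of 7 endothelial markers were under an unadjusted P of 0.05, as were 1427 of all 10938 genes, and 0 were DEGs by DESeq2, with a median log2 fold change of -0.60, and their sum was 26.1 to 54.8 TPM in FLL mice. The part of cell composition in the differences of the lipogenic genes was not tested.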

How the data were processed

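RNA was sequenced from whole liver of 18 mice. Per the labels and the study's methods, the authors checked reads with FastQC and estimated transcript counts with Salmon 1.4.0 against GENCODE M26 (GRCm39). The read layout and the strand setting are not given in the sources used here, so reads of Acss2, Srebf1, Acaca, Me1 and Acly and of the genes that overlap them may not be fully told apart. The authors deposited, per library, estimated counts of 139225 transcripts, and beside them TPM values, which are scaled to the sum of each library. The deposited files hold no further columns of other samples.

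Transcripts were joined to genes by GENCODE M39 (137570 joined, 1655 not, at least 99.8% of counts in each library), estimated counts were summed per gene and rounded, and genes that reached 10 counts in 4 or more libraries were kept. DESeq2 1.42.0 (R 4.3.3) was fitted to all 18 libraries with 1 term per group, scaled by size factors (normalized counts), with the Wald test and Benjamini-Hochberg adjustment over the genes that DESeq2's independent filtering left in each comparison: 3301 of 10938 for LL genotype in males, 8598 in females, 7541 averaged, 1606 for the interaction and 10930 for each sex comparison. A DEG passed an adjusted P of 0.05 and changed 1.3-fold or more, or to 0.7-fold or less, and for the interaction the adjusted P alone was used. Single values were compared by exact two-sided permutation tests (scipy 1.17.1), and pairs of members by 100000 permutations within groups. Alternatives were edgeR 4.0.16, limma 3.58.1 on log2(TPM + 1), other scaling, filters and terms, and each library left out. The test was also run on counts simulated from the fitted means and dispersions, which cannot check that model against these data.

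Named beside the members were, from each other list, up to 4 genes with the smallest adjusted P by LL genotype and up to 2 with the largest DEG fold change by sex, the 10 most and 5 least alike genes, and Gckr. Some genes that this rule names are not reported here. The members and lists were chosen with earlier results of these data known. No 2 mice of a group had libraries that agreed within sampling noise (lowest chi-square per degree of freedom 11.1 over 32 pairs). The labels give 1 mouse per library with ages of 9 to 14 weeks, where the series' design text gives 14. Depth per library, from 3794671 to 6613905 counts, limits genes such as Pnpla3, for which a count of 0 allows up to 3 counts. This limit covers counting error only.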

Additional observations from a re-analysis of the deposited data

Results flagged for a closer look

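Of 36 groups of 4 or 5 mice looked at, 2 held a mouse far from the others of its group by Dixon's criterion, where chance gives about 1 in 20. The highest MPP mouse for Acly, MPP 4, was at 611 normalized counts, against 462 to 481 in the other MPP mice. The highest FLL mouse for Slc25a1, FLL 5, was at 738 normalized counts, against 503 to 563 in the other FLL mice.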

How the results depend on the processing

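Among single members, 68 values lost a call, 15 gained a call, 6 changed sign and 1405 did none of these. A change of sign was counted only if the value in the DESeq2 fit given above exceeded its SE or was called. Values within their SE in that fit also crossed 0, such as Acly in females (0.096 with the transcript length offset) and Acaca averaged over the sexes (0.059 with that offset, 0.094 with limma). The 6 were Me1 in females (-0.19 with limma on log2(TPM + 1), -0.068 with the transcript length offset) and Slc25a1 in females (-0.59 and -0.54) and averaged over the sexes (-0.016 and -0.17). By LL genotype in males (1 DEG) there were 0 by edgeR, with the fragment length term, with limma, without the filter, without independent filtering and with the transcript length offset, 2 with only males fitted, and 0 to 1 on leaving out a library. In females (0 DEGs) there were 0 to 1 on leaving out a library. Averaged over the sexes (2 DEGs) there was 1 with age as a term or without the filter, 0 by edgeR, with the fragment length term, limma, no independent filtering or the length offset, and 0 to 3 on leaving out a library. Between FLL and MLL mice (2 DEGs) there were 3 with the fragment length term, 1 by edgeR or with only LL mice, and 1 to 3 on leaving out a library. Between FPP and MPP mice (6 DEGs) there were 8 by limma, 7 with only PP mice, 5 by edgeR or with age as a term, 4 with the length offset and 4 to 6 on leaving out a library. The interaction had 0 throughout. The median of the members was 0.12 in females with the fragment length term, and by limma 0.71 in males and 1.49 between FPP and MPP mice, where all genes moved to 0.23 and 0.53. On leaving out a library the medians ranged from 0.40 to 0.52 in males, -0.19 to -0.02 in females, 0.78 to 1.09 between FPP and MPP mice, 0.22 to 0.53 between FLL and MLL mice, 0.11 to 0.22 averaged and -0.76 to -0.52 in the interaction. Of all genes, 402 were higher and 303 lower in FPP than in MPP mice, against 3902 and 91 by limma, and 364 and 305 in FLL than in MLL mice, against 317 and 67. Pairs of members that passed adjustment were 0, 2 on log2(TPM + 1) and 1 with fragment length removed. The cause of these changes was not tested. Replicate numbers follow age within each group, so a block by number is in part a block by age. Over 25 pairs with the same number the correlation of deviations ran from -0.43 to 0.22, with 8 over 0.1. With the replicate number as a block, 3 members passed averaged over the sexes, with Acss2 added (adjusted P = 0.0486), and the counts of members in the other comparisons were as in the fit without the block.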
